A study of Sus scrofa with 6 samples.

Results

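The genes described here are the potassium channel genes of pig brain. The rule read only the symbol and no measured value, but was set with earlier results of these data known. It took every protein-coding gene of the deposited expression table whose pig symbol begins with KCN, which gave 87 of 21280 genes. They comprised 15 genes of the KCNA to KCND group, 13 KCNQ and KCNH genes, 14 KCNJ genes, 13 KCNK genes, 8 genes of the KCNMA, KCNN and KCNT kind (with KCNU1), and 24 genes of auxiliary or silent subunits. To these were added the 36 circular RNAs (circRNAs), of 11375 in all, whose deposited positions lay inside one of these genes.

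The groups were 3 wild boars and 3 domestic pigs of the Rongchang breed, all labelled female and 2 years old. The tissue label was brain for wild boar and cerebrum for domestic pig, while the series title speaks of prefrontal cortex. The domestic pig libraries were re-analysed from an earlier deposit, so breed, source project and labelled tissue cannot be told apart in any comparison below. Samples were numbered 1 to 3 in each group, and where the labels do not tie a number to a separate animal the p-values measure only the spread between samples.

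Potassium channels let potassium ions leave the cell and so hold the resting potential, end the action potential and set how often a neuron fires. KCNA to KCND subunits form the voltage-gated channels that repolarise axons and dendrites, KCNQ and KCNH subunits form slower voltage-gated channels that restrain firing, and KCNJ subunits form inward rectifiers, some opened by G proteins. KCNK subunits form background leak channels. KCNMA, KCNN and KCNT pores open with intracellular calcium or sodium, and auxiliary subunits bind to the pores and change their gating or delivery to the membrane.

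Levels are given as TPM, an abundance scaled for transcript length, so genes can be set against each other. Of the 1000000 per library, the deposited gene values made up 23.2%, 17.2% and 31.0% in wild boar 1 to 3, against 23.5%, 35.6% and 40.9% in domestic pig 1 to 3. The deposited TPM of each library was therefore divided by a median-ratio factor (rescaled TPM), and for each called channel or partner gene named the result on deposited TPM is given beside it. The median log2 fold change of wild boar over domestic pig over all 11752 genes tested was 0.01 on rescaled TPM and -0.41 on deposited TPM. TPM keeps no depth, so the number of reads behind a gene's value is unknown. The 4 neuron markers summed to 1594, 1236 and 1577 rescaled TPM in wild boar 1 to 3, against 1440, 1239 and 1660 in domestic pig 1 to 3. Of these, SNAP25, SYT1 and STMN2 were high in every library and were not called. RBFOX3 was low, at 2.96 to 3.81 rescaled TPM in wild boar against 1.87 to 2.57 in domestic pig, and was higher in wild boar (log2 fold change 0.43). The 3 red blood cell markers were all higher in wild boar, summing to 449 to 1320 rescaled TPM against 85.7 to 227 in domestic pig. Endothelial markers summed to 19.5 to 30.7 rescaled TPM in wild boar, against 13.0 to 13.8 in domestic pig. Among 3 tested, CLDN5 was higher in wild boar (log2 fold change 1.28), while PECAM1 (0.41) and FLT1 (0.01) were not called. The sums of astrocyte and oligodendrocyte markers overlapped between the groups. Of 6 astrocyte markers tested, only ALDOC was called (0.54, higher in wild boar), and AQP4 was lower in wild boar without overlap (-0.62). Oligodendrocyte precursor markers summed to 44.5 to 52.1 rescaled TPM in wild boar, against 29.3 to 43.4 in domestic pig. Among 3 tested, OLIG1 (log2 fold change 0.54) and OLIG2 (0.70) were higher in wild boar, and PDGFRA (-0.14) was not called. Mural markers summed to 62.1 to 76.6 rescaled TPM in wild boar, against 51.9 to 65.0 in domestic pig, so the sums overlapped. Among 5 tested, ACTA2 (log2 fold change 1.12) and TAGLN (1.05) were higher in wild boar. MYH11 (0.76), PDGFRB (0.21) and RGS5 (-0.43) were not called. Striatal markers summed to 11.5 to 13.5 rescaled TPM in wild boar, against 11.9, 11.6 and 57.1 in domestic pig 1 to 3, so domestic pig 3 stood apart. Of 3 thalamic markers tested, 2 were lower in wild boar, and the list of 4 summed to 7.39 to 8.87 rescaled TPM in wild boar, against 13.2 to 16.7 in domestic pig. The part of these markers in the results was not tested.

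Of the 87 potassium channel genes, 55 reached the filter of 1 TPM in at least 3 libraries, and all 55 held such values in libraries of both groups. The highest levels belonged to auxiliary subunits. KCNAB2, which encodes a beta subunit of KCNA channels, averaged 38.7 ± 3.06 rescaled TPM in wild boar against 26.2 ± 2.68 in domestic pig (mean ± SD over n = 3 libraries, as for every mean below). KCNIP4, a calcium-binding partner of KCND channels, averaged 31.2 ± 3.65 rescaled TPM in wild boar, against 34.6 ± 4.99 in domestic pig. Among pores, KCNJ3, a subunit of G-protein-gated inward rectifiers, led with 21.0 ± 2.49 rescaled TPM in wild boar, against 22.8 ± 2.08 in domestic pig. In all, 20 members averaged above 10 rescaled TPM over the 6 libraries. Summed over all 87 genes, the level was 515, 464 and 498 rescaled TPM in wild boar 1 to 3, against 446, 478 and 492 in domestic pig 1 to 3, so the groups overlapped.

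**Figure D1:**
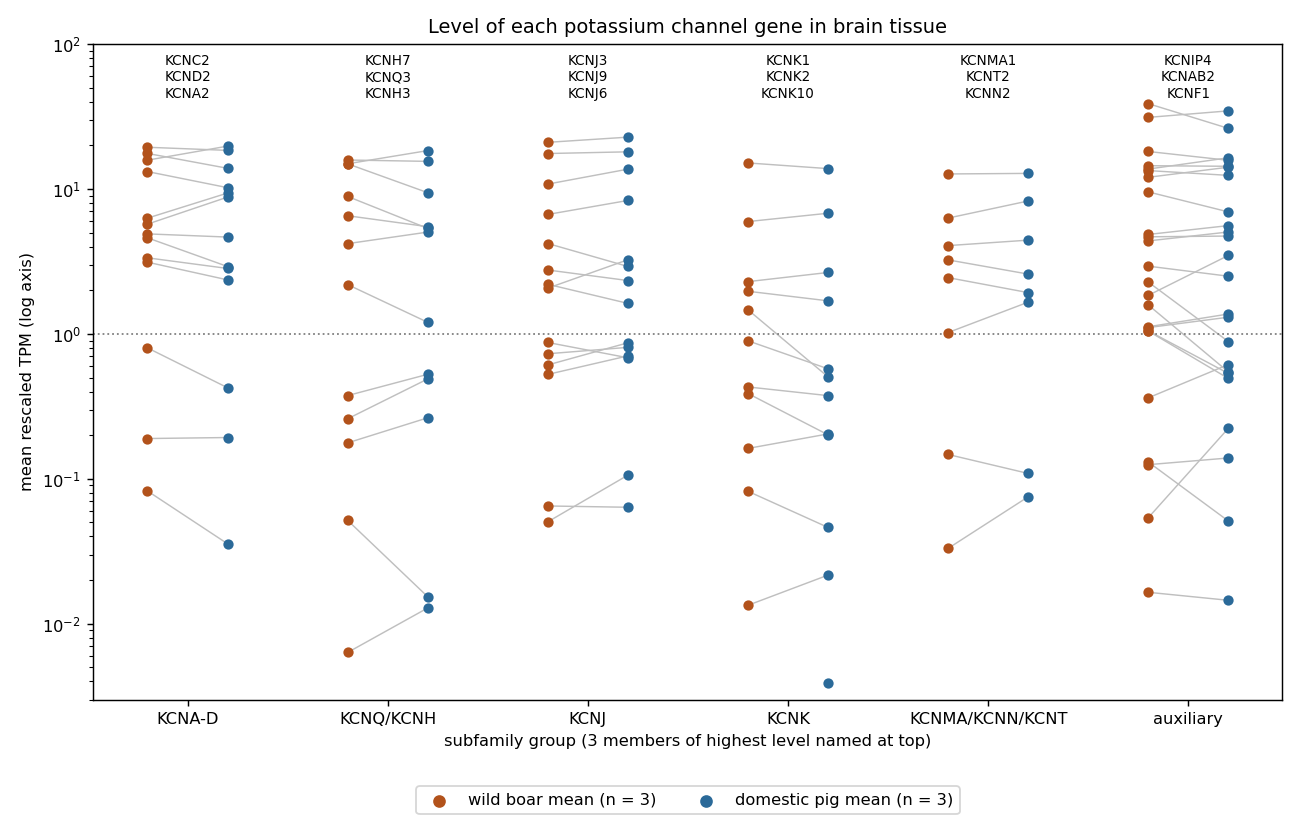
Mean rescaled TPM on a log axis for 84 of the 87 potassium channel genes, wild boar left (orange) and domestic pig right (blue) in each subfamily group, with a line joining the means of a gene (n = 3 libraries each). The dotted line marks 1 TPM, means of 0 are not drawn, and the 3 members of highest level in each group are named at the top; the wild boar means run from 38.7 rescaled TPM for KCNAB2 down to 0.

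On rescaled TPM, 9 potassium channel genes were higher in wild boar and 2 were lower, at an adjusted p under 0.05 (limma with a mean-variance trend, Benjamini-Hochberg over all 11752 genes tested). At an unadjusted p under 0.05 there were 19 of the 55 tested members, against 4327 of all 11752 genes (36.8%). Among the genes that were higher were KCNG1, KCNK3, KCNH3, KCNAB2, KCNH2, KCNJ4 and KCNMB4, the last of which turned to a fold change just below 0 on deposited TPM. KCNA3 and KCNA4, a pair of related voltage-gated subunits, were lower. The share called, 20.0% of the 55 tested, stood beside 19.5% of all genes tested, so the number of changed channels was near the background. By direction, 16.4% of tested members were higher against 8.94% of all genes, and 3.64% were lower against 10.5% of all genes. Fold changes lay above 0 for 31 of 55 members and below 0 for 24, or 56.4% above 0 against 51.7% of all genes. The groups did not overlap, with wild boar higher, for 23.6% of tested members against 19.7% of all genes, and with wild boar lower for 9.09% against 21.9%. On deposited TPM, limma called 0 of the 55 members, against 1.6% of all genes (0.136% higher and 1.46% lower). An unadjusted p under 0.05 on that scale was reached by 5 of the 55, against 17.8% of all genes. All 5 were lower in wild boar: KCNA3 and KCNA4, and KCNJ16, KCNN3 and KCNE3, which are named after their values were seen. Deposited fold changes lay above 0 for 10 of 55 members, with a median of -0.40 against -0.41 over all genes. The counts moved with the libraries used: there were 6 higher and 2 lower without wild boar 1, 4 and 1 without wild boar 2, 4 and 0 without wild boar 3, 2 and 0 without domestic pig 1, 12 and 2 without domestic pig 2, and 7 and 1 without domestic pig 3. The calls over all 11752 genes moved as well, from 2289 with all libraries. They numbered 1062, 763 and 834 without wild boar 1, 2 and 3, and 854, 2192 and 1468 without domestic pig 1, 2 and 3. In bulk tissue such as this, fewer cells of a type and less RNA per cell cannot be told apart.

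**Figure D2:**
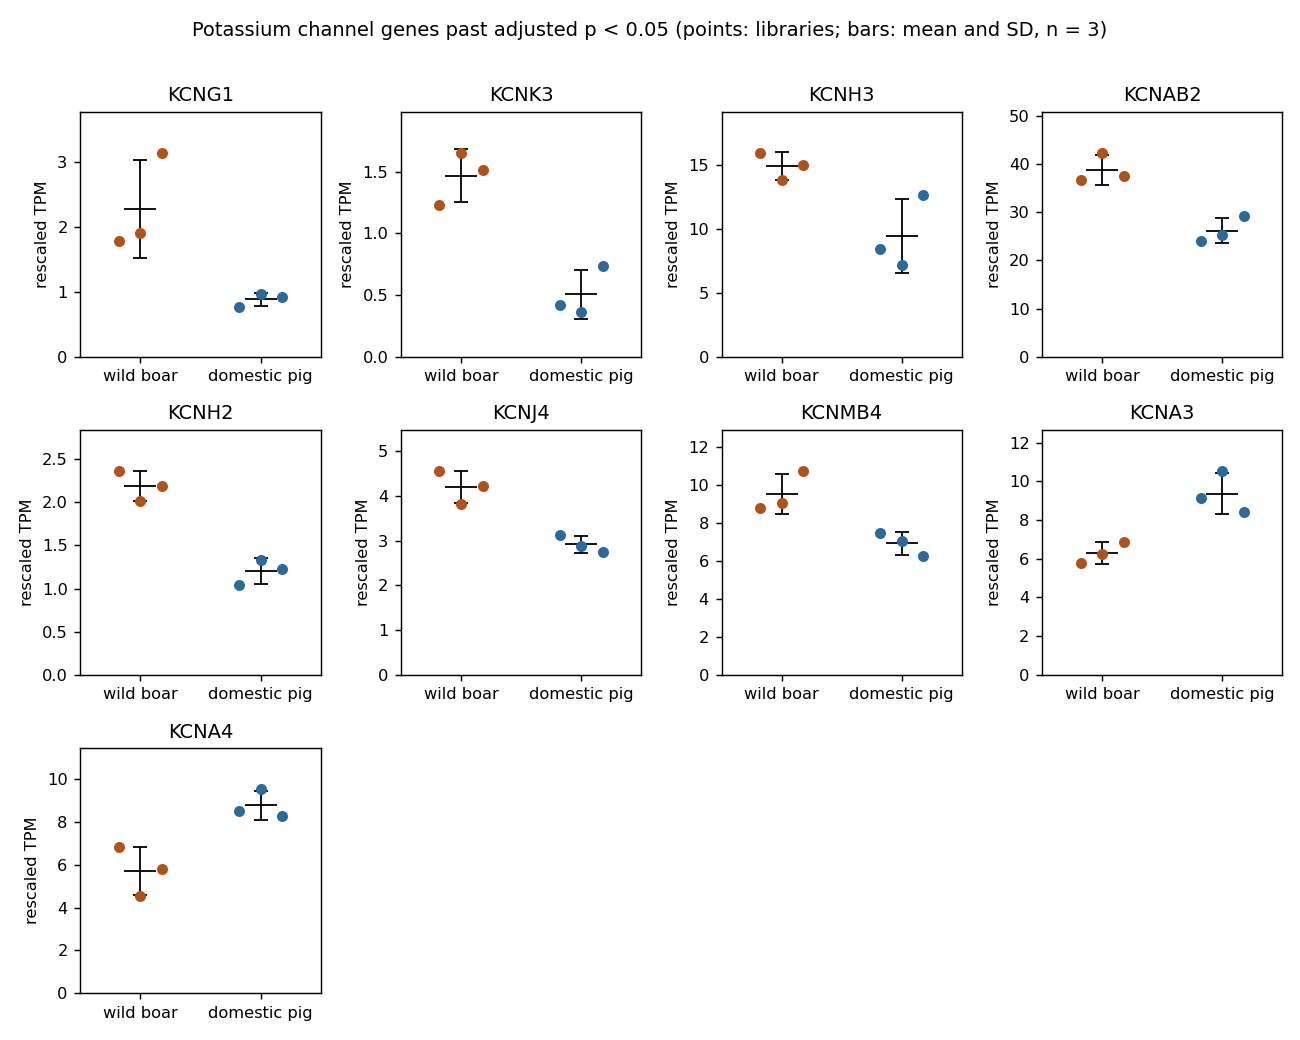
Rescaled TPM in each library (points) with mean and SD (bars, n = 3), wild boar left and domestic pig right, for 9 of the 11 potassium channel genes past an adjusted p of 0.05. In each of the 9 panels the 3 wild boar points lie apart from the 3 domestic pig points on rescaled TPM; on deposited TPM the fold change of KCNMB4 was -0.05 (log2) and the groups lay apart for KCNA3 and KCNA4 among these 9.

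The KCNQ and KCNH group held 3 of the 9 members that were higher, and 0 that were lower, among 8 tested. KCNQ3 encodes a subunit of the M-channel, the slow potassium channel that muscarinic receptors close. It was not called, with 15.8 ± 3.12 rescaled TPM in wild boar, against 15.5 ± 1.55 in domestic pig. KCNQ3 had a log2 fold change of 0.02 (SE 0.15, limma adjusted p = 0.954) on rescaled TPM and -0.46 on deposited TPM.

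KCNH3 encodes a voltage-gated subunit of the forebrain in rodents. It had 15.9, 13.8 and 15 rescaled TPM in wild boar 1 to 3, against 8.43, 7.16 and 12.7 in domestic pig 1 to 3, with domestic pig 3 close below the wild boar values. On the log2(TPM + 1) scale used throughout, KCNH3 had a log2 fold change of 0.64 (SE 0.18, limma adjusted p = 0.0410) on rescaled TPM and 0.17 (limma adjusted p = 0.826) on deposited TPM. Without domestic pig 3 the adjusted p was 0.0147, but leaving out the domestic pig library nearest wild boar raises the fold change by construction. With any other library left out, the adjusted p of KCNH3 was 0.0799 to 0.113. KCNH2 encodes the channel known as hERG, which repolarises the heart and is also found in neurons. It had 2.36, 2.02 and 2.18 rescaled TPM in wild boar 1 to 3, against 1.04, 1.34 and 1.22 in domestic pig 1 to 3, so the groups stood apart. KCNH2 had a log2 fold change of 0.53 (SE 0.11, limma adjusted p = 0.0153) on rescaled TPM and 0.22 (limma adjusted p = 0.669) on deposited TPM. Without 1 library, the adjusted p of KCNH2 was 0.0520 (without wild boar 3) and 0.0554 (without domestic pig 1), and under 0.05 with any other left out. KCNH7, a relative of KCNH2 and the member of highest level in this group, lay on the other side, with 14.9 ± 1.08 rescaled TPM in wild boar, against 18.4 ± 2.41 in domestic pig (log2 fold change -0.28, limma adjusted p = 0.139), and was not called. The median log2 fold change of the 8 tested genes was 0.38 on rescaled TPM and -0.03 on deposited TPM.

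Of 12 tested KCNA to KCND genes, 1 was higher in wild boar and 2 were lower. KCNA3 encodes a delayed rectifier also known from T lymphocytes and microglia. It had 5.76, 6.23 and 6.87 rescaled TPM in wild boar 1 to 3, against 9.16, 10.5 and 8.41 in domestic pig 1 to 3, and the groups did not overlap. KCNA3 had a log2 fold change of -0.51 (SE 0.12, limma adjusted p = 0.0233) on rescaled TPM and -0.95 (limma adjusted p = 0.207) on deposited TPM. The adjusted p of KCNA3 was 0.0506 to 0.0762 with any of the wild boar libraries or domestic pig 1 left out. The summed level of 5 microglial markers was 27.0, 51.1 and 35.2 rescaled TPM in wild boar 1 to 3, against 42.6, 34.2 and 31.2 in domestic pig 1 to 3, so it overlapped between the groups. Among them C1QA was higher in wild boar (log2 fold change 0.72, limma adjusted p = 0.0398), and P2RY12 gave -0.66 (limma adjusted p = 0.0830). The part of these markers in the KCNA3 values was not tested.

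KCNA4 encodes a rapidly inactivating A-type subunit of axons. Its rescaled TPM was 6.82, 4.54 and 5.79 in wild boar 1 to 3, against 8.50, 9.55 and 8.30 in domestic pig 1 to 3, again without overlap. KCNA4 had a log2 fold change of -0.55 (SE 0.14, limma adjusted p = 0.0302) on rescaled TPM and -0.99 (limma adjusted p = 0.190) on deposited TPM. Wild boar 1 was the only library whose removal left the call of KCNA4, at an adjusted p of 0.0330, and without the others it was 0.0539 to 0.0834. KCNA3 and KCNA4 were the called members whose groups also did not overlap on deposited TPM.

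KCNC2, a fast-gating subunit that lets neurons fire at high rates and the pore of highest level in this group, averaged 19.4 ± 1.90 rescaled TPM in wild boar, against 18.5 ± 1.71 in domestic pig and was not called (log2 fold change 0.07 on rescaled and -0.42 on deposited TPM). KCND2, the main A-type subunit of dendrites, had 16.1, 15.1 and 16.1 rescaled TPM in wild boar 1 to 3, against 19.8, 17.7 and 21.7 in domestic pig 1 to 3. Wild boar values were lower without overlap, but the difference missed the threshold, with a log2 fold change of -0.30 (SE 0.11, limma adjusted p = 0.0860).

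Of 8 tested KCNJ genes, 1 was higher in wild boar and 0 were lower. KCNJ4, a strong inward rectifier of forebrain dendrites, had 4.56, 3.83 and 4.22 rescaled TPM in wild boar 1 to 3, against 3.12, 2.89 and 2.75 in domestic pig 1 to 3, without overlap. KCNJ4 had a log2 fold change of 0.41 (SE 0.11, limma adjusted p = 0.0340) on rescaled TPM and 0.02 (limma adjusted p = 0.983) on deposited TPM. Its adjusted p passed without domestic pig 2 (0.0490) and was 0.0616 to 0.105 with any of the others left out. KCNJ3, KCNJ6 and KCNJ9, subunits of G-protein-gated channels, had higher levels than KCNJ4 and were not called. KCNJ9 averaged 17.5 ± 2.30 rescaled TPM in wild boar, against 18 ± 0.824 in domestic pig (log2 fold change -0.04). KCNJ6 had 10.4, 10.8 and 11.1 rescaled TPM in wild boar 1 to 3, against 12.3, 15.9 and 12.9 in domestic pig 1 to 3, lower in wild boar without overlap but past the threshold in neither scaling (log2 fold change -0.31, SE 0.12, limma adjusted p = 0.0957 on rescaled TPM). KCNJ3 gave a log2 fold change of -0.12 (SE 0.12, limma adjusted p = 0.530). The median of the KCNJ group was -0.08 on rescaled TPM and -0.57 on deposited TPM.

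Among 5 tested leak-channel genes, KCNK3 was higher in wild boar and had the largest ratio of means of the called members. It encodes a leak subunit closed by acid outside the cell. Its level was low, with 1.23, 1.65 and 1.51 rescaled TPM in wild boar 1 to 3, against 0.419, 0.360 and 0.736 in domestic pig 1 to 3. The groups stood apart, and the ratio of means was 2.90. Its log2 fold change, compressed by the pseudocount of 1, was 0.72 (SE 0.13, limma adjusted p = 0.0114), and it passed whichever library was left out, with adjusted p up to 0.0457. The genes tested were kept fixed in those fits. KCNK3 reached 1 deposited TPM only in wild boar 1 (1.08), wild boar 3 (1.75) and domestic pig 3 (1.005). Those are the fewest libraries the filter allows. On deposited TPM its fold change was 0.48 (limma adjusted p = 0.285). KCNK1, the leak gene of highest level, averaged 15.1 ± 2.48 rescaled TPM in wild boar, against 13.8 ± 2.99 in domestic pig, a difference within the spread of either group. KCNK2 and KCNK10, which encode stretch- and lipid-sensitive leak channels, were not called (log2 fold changes -0.20 and -0.16).

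None of the 6 tested genes for calcium- or sodium-activated pores passed the limma threshold, with 2 at an unadjusted p under 0.05. KCNMA1, the pore of the large-conductance calcium-activated (BK) channel, had 12.7, 11.5 and 13.8 rescaled TPM in wild boar 1 to 3, against 11, 16.8 and 10.6 in domestic pig 1 to 3, with domestic pig 2 highest of all. KCNMA1 had a log2 fold change of 0.01 (SE 0.17, limma adjusted p = 0.967) on rescaled TPM and -0.46 on deposited TPM. KCNT1, a sodium-activated pore, averaged 2.44 ± 0.0944 rescaled TPM in wild boar, against 1.93 ± 0.0715 in domestic pig. Its groups did not overlap, and its log2 fold change was 0.23 (SE 0.10, limma adjusted p = 0.122) on rescaled TPM and -0.11 on deposited TPM. KCNT2 averaged 6.29 ± 0.178 rescaled TPM in wild boar, against 8.26 ± 2.89 in domestic pig, where domestic pig 2 was at 11.6. KCNN2, a small-conductance calcium-activated (SK) pore, averaged 4.06 ± 0.362 rescaled TPM in wild boar, against 4.43 ± 0.160 in domestic pig (log2 fold change -0.10).

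Of 16 tested auxiliary genes, 3 were higher in wild boar on rescaled TPM and 0 were lower, with KCNMB4 among the 3 and its direction lost on deposited TPM. KCNAB2 had 36.6, 42.2 and 37.4 rescaled TPM in wild boar 1 to 3, against 24.0, 25.3 and 29.2 in domestic pig 1 to 3, without overlap. KCNAB2 had a log2 fold change of 0.55 (SE 0.12, limma adjusted p = 0.0184) on rescaled TPM and 0.05 (limma adjusted p = 0.955) on deposited TPM. The adjusted p of KCNAB2 was 0.0524 to 0.0633 without domestic pig 1 or either of wild boar 2 and 3. KCNAB1, the other abundant beta subunit, averaged 12 ± 0.651 rescaled TPM in wild boar, against 14.1 ± 2.89 in domestic pig and was not called.

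KCNG1 encodes a silent subunit that forms no channel alone and joins KCNB pores. It had 1.79, 1.90 and 3.14 rescaled TPM in wild boar 1 to 3, against 0.772, 0.964 and 0.918 in domestic pig 1 to 3, with wild boar 3 highest. KCNG1 had a log2 fold change of 0.78 (SE 0.16, limma adjusted p = 0.0163) on rescaled TPM and 0.49 (limma adjusted p = 0.324) on deposited TPM, and the adjusted p was 0.0554 without domestic pig 1. KCNF1, another silent subunit, was more abundant at 18.1 ± 2.48 rescaled TPM in wild boar, against 15.8 ± 1.40 in domestic pig, and was not called (log2 fold change 0.19 on rescaled and -0.30 on deposited TPM). KCNMB4 encodes the brain beta subunit of BK channels. It had 8.79, 9.07 and 10.7 rescaled TPM in wild boar 1 to 3, against 7.5, 7.04 and 6.29 in domestic pig 1 to 3, without overlap. KCNMB4 had a log2 fold change of 0.41 (SE 0.12, limma adjusted p = 0.0436) on rescaled TPM and -0.05 (limma adjusted p = 0.955) on deposited TPM. This call was lost without each of the 6 libraries in turn, with adjusted p of 0.0600 to 0.138. KCNIP4 gave a log2 fold change of -0.14 (SE 0.14, limma adjusted p = 0.493).

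**Figure D3:**
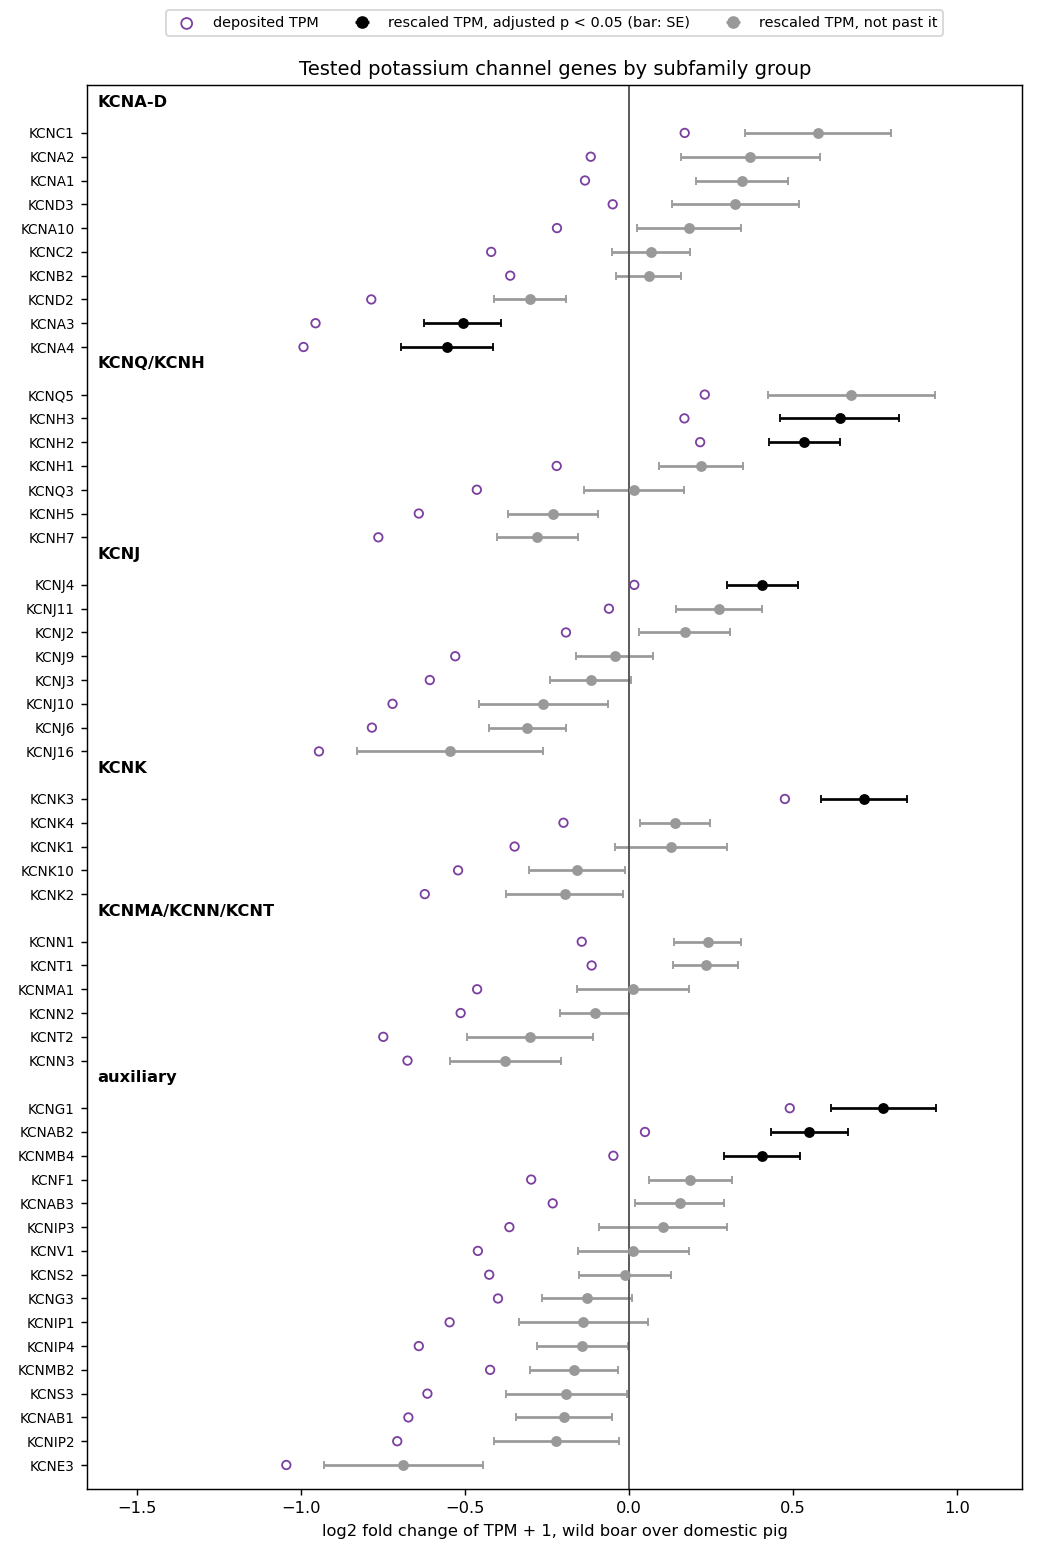
Log2 fold change of TPM + 1, wild boar over domestic pig, for 52 of the 55 tested potassium channel genes by subfamily group. Filled points are rescaled TPM with SE bars (black past an adjusted p of 0.05, grey otherwise) and open circles are deposited TPM; the open circles lie to the left of the filled ones throughout, 6 of the 7 black points above 0 keep their sign on deposited TPM, and KCNMB4 does not.

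The remaining 32 potassium channel genes stayed under the filter, with means over the 6 libraries of at most 1.06 rescaled TPM, and KCNK16 was listed at 0 in all 6. Among them wild boar values were higher without overlap for 6 (KCNC4, KCNK9, KCNK13, KCNQ1, KCNG2 and KCNE4) and lower without overlap for 5 (KCNJ8, KCNK6, KCNU1, KCNRG and KCNMB3), named here after their values were seen and not tested. Of all 9528 genes under the filter, the groups did not overlap for 4.91% with wild boar higher and for 19% with wild boar lower. KCNG2, a silent subunit like KCNG1, averaged 1.58 ± 0.398 rescaled TPM in wild boar, against 0.546 ± 0.0448 in domestic pig. KCNJ8, a pore of ATP-sensitive channels, averaged 0.611 ± 0.0951 rescaled TPM in wild boar, against 0.868 ± 0.171 in domestic pig.

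Several voltage-gated genes had a domestic pig 2 value near the wild boar values and far above domestic pig 1 and 3. KCNA2, an axonal delayed rectifier, had 16.2, 17.6 and 19.0 rescaled TPM in wild boar 1 to 3, against 10.05, 19.7 and 11.9 in domestic pig 1 to 3, and was not called (log2 fold change 0.37, limma adjusted p = 0.238, and -0.12 on deposited TPM). KCNC1, KCNQ5 and KCND3 had the same arrangement and are named after their values were seen. Because these genes were picked for a domestic pig 2 value close to wild boar, leaving that library out raises their fold change by construction, so the values without it are a description. For KCNA2 the log2 fold change without it was 0.64. KCNC1, a partner of KCNC2 in fast-spiking neurons, had 4.86, 4.33 and 4.61 rescaled TPM in wild boar 1 to 3, against 2.04, 4.62 and 2.09 in domestic pig 1 to 3. KCNC1 had a log2 fold change of 0.58 (limma adjusted p = 0.0974) with all libraries and 0.87 without domestic pig 2. KCNQ5, a relative of KCNQ3, had 8.16, 7.07 and 11.4 rescaled TPM in wild boar 1 to 3, against 3.54, 8.03 and 4.44 in domestic pig 1 to 3. KCNQ5 had a log2 fold change of 0.68 (limma adjusted p = 0.0911) with all libraries and 0.97 without domestic pig 2. For KCND3 the fold change without that library was 0.55. KCND2, lower in wild boar, also passed without domestic pig 2 (-0.37, limma adjusted p = 0.0418), while KCNA4, KCNH3 and KCNMB4 missed the threshold. The count without domestic pig 2 was 12 higher and 2 lower, when 18.7% of all genes were called.

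In markers of glutamatergic neurons domestic pig 2 was likewise the highest of the domestic pigs. The 4 markers summed to 175, 210 and 206 rescaled TPM in wild boar 1 to 3, against 94.6, 151 and 103 in domestic pig 1 to 3, and 2 of the 4 were higher in wild boar. The vesicular glutamate transporter SLC17A7 had 42.2, 52.1 and 47.7 rescaled TPM in wild boar 1 to 3, against 21.8, 37.1 and 23.1 in domestic pig 1 to 3. TBR1, a transcription factor of deep-layer cortical neurons, had 6.36, 6.67 and 6.91 in wild boar 1 to 3, against 3.52, 6.67 and 3.93 in domestic pig 1 to 3. The domestic pig 2 value of TBR1 fell within the wild boar values, as did that of KCNC1, while that of SLC17A7 stayed below them. The 6 GABAergic markers summed to 252, 234 and 208 rescaled TPM in wild boar 1 to 3, against 247, 174 and 258 in domestic pig 1 to 3, so domestic pig 2 had the lowest sum. PVALB, SST and GAD1 were each lowest in domestic pig 2, while GAD2, VIP and SLC32A1 were not. For SLC32A1, domestic pig 2 was the highest domestic pig, at 4.50 rescaled TPM against 3.63 and 4.07 in domestic pig 1 and 3. The part of either list in the channel results was not tested.

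**Figure D4:**
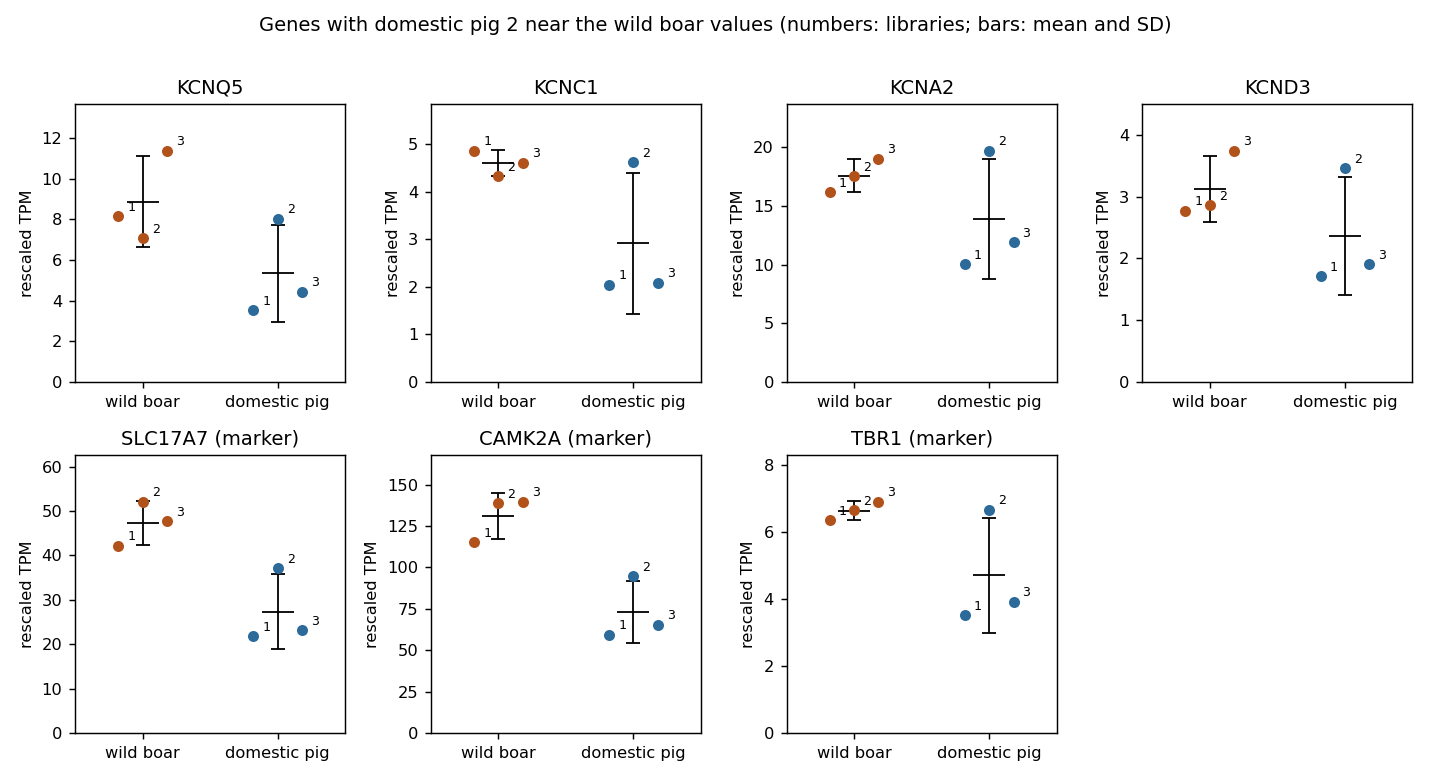
Rescaled TPM in each library (points, numbered by library) with mean and SD (bars, n = 3), wild boar left and domestic pig right, for KCNQ5, KCNC1, KCNA2 and KCND3 and for the glutamatergic markers SLC17A7, CAMK2A and TBR1. In every panel domestic pig 2 is the highest domestic pig; in the 4 channel panels and in TBR1 it lies within or above the range of the wild boar values, while in SLC17A7 and CAMK2A it stays below them.

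Genes that work with potassium channels were taken from lists of channel partners, HCN channels, sodium-potassium pump subunits and cation-chloride cotransporters. Of 57 listed, 50 were in the table and 44 were tested, of which 6 were higher in wild boar, 4 were lower and 34 were not called on rescaled TPM, with the sign of GNB5 reversed on deposited TPM. The share called was 22.7%, near the 19.5% of all genes tested. Their median log2 fold change was 0.12, against 0.01 over all genes. On deposited TPM limma called 0 of the 44, with 8 at an unadjusted p under 0.05, against 17.8% of all genes. HCN2, a pacemaker channel opened by hyperpolarisation, had 12.2, 13.6 and 11.6 rescaled TPM in wild boar 1 to 3, against 5.83, 7.39 and 8.44 in domestic pig 1 to 3. Its groups stood apart, and its log2 fold change was 0.72 (SE 0.14, limma adjusted p = 0.0133) on rescaled TPM and 0.25 on deposited TPM. Proteins that hold KCNA channels in place went both ways. DLG1 encodes a scaffold of KCNA and KCNJ channels and had 33.7, 28.7 and 32.1 rescaled TPM in wild boar 1 to 3, against 53.4, 51.1 and 43.8 in domestic pig 1 to 3. DLG1 had a log2 fold change of -0.63 (SE 0.12, limma adjusted p = 0.0137) on rescaled TPM and -1.13 on deposited TPM. Its relative DLG4, the main scaffold of excitatory synapses, gave 0.57 (SE 0.14, limma adjusted p = 0.0302) on rescaled TPM and 0.07 on deposited TPM. ADAM22, which clusters axonal KCNA channels through LGI proteins, was lower in wild boar (-0.46, limma adjusted p = 0.0349, and -0.96 on deposited TPM). CNTNAP1, which builds the paranodal junction beside them, was higher (0.65, limma adjusted p = 0.0300, and 0.17 on deposited TPM).

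DPP6, an accessory subunit of KCND channels, was higher in wild boar (0.53, limma adjusted p = 0.0495, and 0.04 on deposited TPM), as was LINGO1, a membrane protein reported to modulate BK channels (0.50, limma adjusted p = 0.0162, and 0.01 on deposited TPM). GNB5, a G-protein beta subunit of the complexes that speed the closing of G-protein-gated KCNJ channels, gave 0.43 (limma adjusted p = 0.0307) on rescaled TPM and -0.08 on deposited TPM. AKAP5, an anchoring protein that brings kinases to KCNQ channels, was lower (-0.47, limma adjusted p = 0.0306, and -0.97 on deposited TPM), and so was WNK3, a kinase that regulates chloride cotransporters (-0.41, limma adjusted p = 0.0236, and -0.83 on deposited TPM). The count of 10 partner genes was 0 without wild boar 2, 1 without domestic pig 1, 2 without wild boar 3, 3 without domestic pig 3, 4 without wild boar 1 and 13 without domestic pig 2. In the same order, the calls over all genes numbered 763, 854, 834, 1468, 1062 and 2192, against 2289 with all libraries.

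CircRNAs are closed loops made when an exon's end is spliced back to the start of the same or an earlier exon, and they lack the free ends that most RNA decay begins from. The 36 circRNAs inside potassium channel genes came from 11 of the 87 genes. KCNH1, which encodes a slow voltage-gated channel of neurons, held 7, KCNH5 and KCNMA1 held 5 each, KCNAB1 and KCNQ5 4 each, KCNC2 and KCNK10 3 each, KCNH7 2, and KCNN2, KCNJ6 and KCNK2 1 each. Hosts were assigned by position only, without strand. Recovered back-splice reads, a lower bound, came to 1618 over the 36 circRNAs and all libraries, with a median of 16 reads per circRNA against 11 over all circRNAs. Of the 36, 18 (50.0%) were above 0 in all 6 libraries, against 35.0% of all circRNAs, and 26 (72.2%) shared a start or an end with another circRNA, against 69.5% of all. Their genomic span ran between 335 and 123737 bases, with a median of 23270.5 against 14150 over all circRNAs.

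The circRNA of KCNN2 carried 822 of the 1618 reads (50.8%) and ranked 12 by mean TPM among all 11375 circRNAs. In the deposited coordinates, whose genome build was not given in the sources used here, this circRNA, ssc_circ_2717, lay on the plus strand at chr2:118773810-118774228, a span of 419 bases. It had 4.87, 4.67 and 6.92 TPM (82, 127 and 95 reads) in wild boar 1 to 3, against 7.17, 9.39 and 12.8 TPM (155, 136 and 227 reads) in domestic pig 1 to 3. Wild boar values were lower without overlap on deposited TPM, with means of 5.49 ± 1.24 TPM in wild boar, against 9.78 ± 2.82 TPM in domestic pig. The log2 fold change was -0.81 (SE 0.26, limma adjusted p = 0.168 over 9709 circRNAs), which missed the threshold. After median-ratio rescaling of the circRNA table it was -0.21 (limma adjusted p = 0.837). The gene KCNN2, in the separately normalised gene table, had a log2 fold change of -0.10.

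No circRNA of a potassium channel gene was called by limma among the 35 tested, with 5 at an unadjusted p under 0.05, against 0.134% of all circRNAs called and 14.5% at an unadjusted p under 0.05. Deposited circRNA TPM summed to 1994, 2029 and 2121 in wild boar 1 to 3, against 2880, 2900 and 3367 in domestic pig 1 to 3, and 74.3% of all tested circRNAs had a fold change below 0. Of the 35 inside potassium channel genes, 19 lay below 0 and 16 above. Their median log2 fold change was -0.04 against -0.45 over all circRNAs, and after rescaling 0.22 against -0.10, when 56.3% of all tested circRNAs lay below 0. The rescaled table also gave 0 called potassium channel circRNAs by limma, with 3 at an unadjusted p under 0.05, against 0.0206% of all called and 9.07% at an unadjusted p under 0.05. All 9709 tested had to be above 0 in at least 3 libraries, which left out, of the 36, ssc_circ_11131 of KCNMA1, with 1 read each in wild boar 1 and 3 and 0 in the others. Where a circRNA had 0 reads, up to 3 reads could have been missed by counting error alone, which is 0.00416% to 0.00899% of the back-splice reads of a library.

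In KCNAB1, ssc_circ_4001 (chr13:96293469-96315572) had 1.25, 0.773 and 0.720 TPM (17, 17 and 8 reads) in wild boar 1 to 3, against 1.32, 0.939 and 0.556 TPM (23, 11 and 8 reads) in domestic pig 1 to 3. The domestic pig range covered the wild boar range. A second circRNA with the same start, ssc_circ_4000 (chr13:96293469-96306873), had 4, 5 and 1 reads in wild boar 1 to 3, against 1, 0 and 1 reads in domestic pig 1 to 3, and was among the 3 of lowest p, though it missed the threshold (limma adjusted p = 0.254). In KCNH7, ssc_circ_4959 (chr15:69192445-69206646) had 0.309, 0.335 and 0.426 TPM (8, 14 and 9 reads) in wild boar 1 to 3, against 0.512, 0.719 and 0.659 TPM (17, 16 and 18 reads) in domestic pig 1 to 3. It was lower in every wild boar library on deposited TPM, with a log2 fold change of -0.75 (SE 0.42, limma adjusted p = 0.438) and of -0.20 after rescaling. In KCNC2, ssc_circ_8991 (chr5:38328843-38338690) had 0.608, 0.166 and 0.149 TPM (25, 11 and 5 reads) in wild boar 1 to 3, against 0.625, 0.566 and 0.691 TPM (33, 20 and 30 reads) in domestic pig 1 to 3, with wild boar 1 among the domestic pig values. All 3 circRNAs of KCNC2 ended at the same position, 38338690.

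The circRNAs of KCNH1 shared positions as well, with 3 starting at 131990595 and 3 ending at 132114331 on chromosome 9. The most abundant of them, ssc_circ_8312 (chr9:132113902-132114331), had 0.0579, 0.466 and 0.284 TPM in wild boar 1 to 3, against 0.451, 0.269 and 0.219 TPM in domestic pig 1 to 3, so the groups overlapped, with a log2 fold change of -0.42 on deposited TPM and 0.08 after rescaling. Another, ssc_circ_8308 (chr9:131990595-132008266), was among the 3 of lowest p without passing (limma adjusted p = 0.174). It had 0 reads in each wild boar library and 1, 1 and 3 reads in domestic pig 1 to 3, at or under the 3 reads that a count of 0 allows. In KCNH5, which encodes a relative of the KCNH1 channel, 4 of 5 circRNAs shared their start, among them ssc_circ_1563 (chr1:194996953-195024592) with 0.105, 0.0972 and 0.256 TPM in wild boar 1 to 3, against 0.285, 0.182 and 0.495 TPM in domestic pig 1 to 3. Its reads were 2, 3 and 4 in wild boar 1 to 3, against 7, 3 and 10 in domestic pig 1 to 3. On deposited TPM the log2 fold change of ssc_circ_1563 was -0.89 (limma adjusted p = 0.496), and after rescaling -0.40 (limma adjusted p = 0.871).

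**Figure D5:**
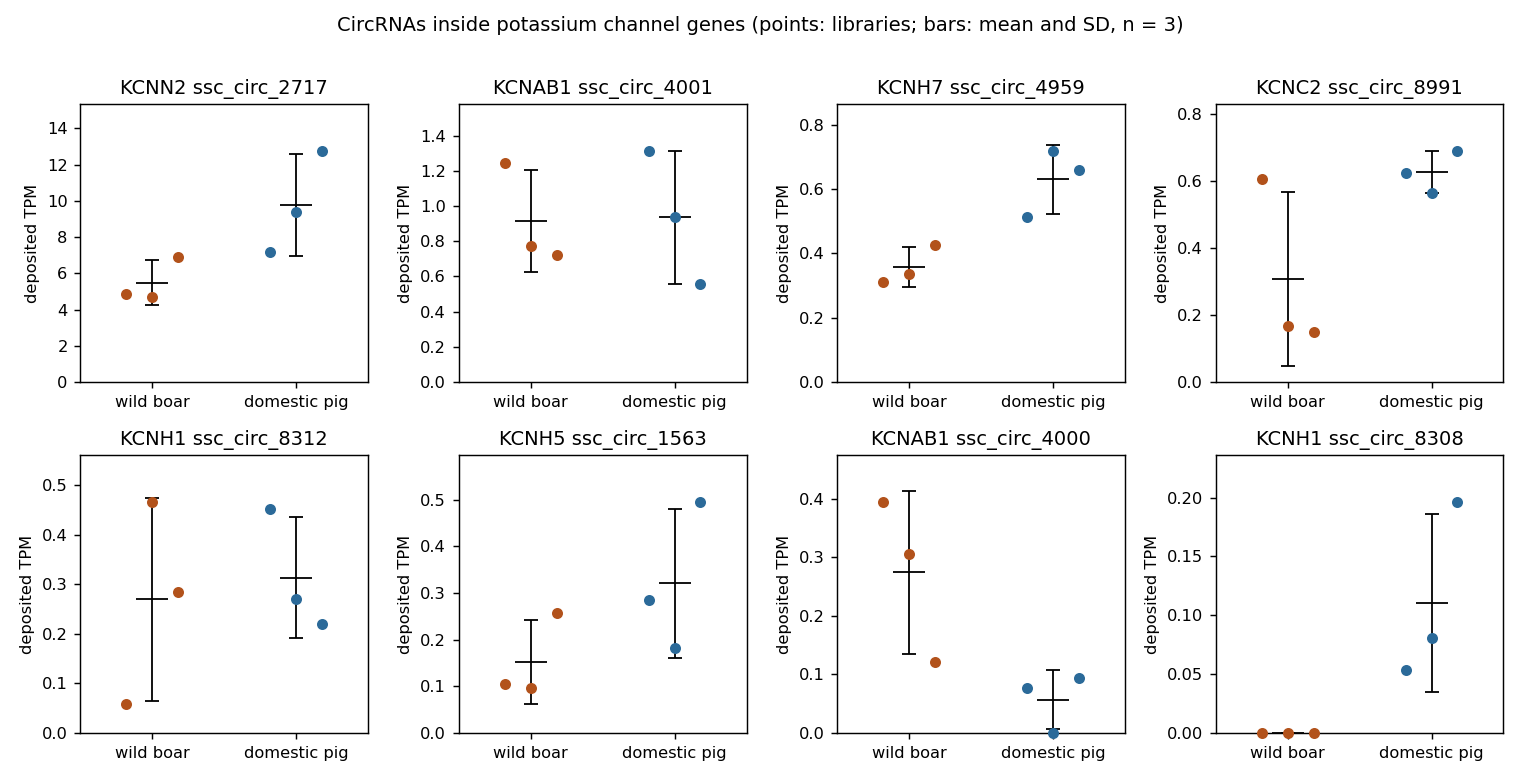
Deposited TPM in each library (points) with mean and SD (bars, n = 3), wild boar left and domestic pig right, for the 6 most abundant circRNAs inside potassium channel genes and 2 further ones of lowest p. Each panel has its own scale; the KCNN2 circRNA reaches 12.8 TPM in domestic pig 3, the others stay under 1.4 TPM, and none passed the threshold.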

How the data were processed

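Total RNA was depleted of ribosomal RNA and made into stranded libraries, per the labels' protocols. The authors deposited TPM for protein-coding genes and, in a separate table, TPM for circRNAs. STAR 2.6.0c and BWA 0.7.17 are named, without roles, in the submitters' processing notes; for the build, annotation and circRNA caller the sources used here give no name. Of 21280 gene identifiers, 14821 matched a symbol.

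Rescaled TPM was deposited TPM divided by a median-ratio factor per library over 11714 genes above 0 in all libraries with mean TPM of at least 1. Genes of at least 1 deposited TPM in at least 3 libraries were tested on log2(rescaled TPM + 1), and circRNAs above 0 in at least 3 libraries on log2(deposited TPM + 0.045), with limma 3.58.1 (trend, R 4.3.3), two-sided, adjusted by Benjamini-Hochberg at 0.05, checked on simulated data. The tables were normalised separately and tested separately. All 11375 circRNAs gave whole read numbers in every library (relative tolerance 1e-05), of which the smallest solution is a lower bound; library totals were 33360 to 72167 reads. CircRNA starts were raised by 1. Hosts came from positions of the RefSeq Sscrofa11.1 gene table: a gene held 99.3% of circRNAs, and 47.2% once positions were moved by 1000000 bases. No potassium channel gene that was called overlapped another protein-coding gene in that table.

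Of the potassium channel genes, 3 are counted but not reported here. Of the rest, named were all called potassium channel genes, the 3 of highest level and that of lowest p per group, called partners up to 6 per direction, the 6 circRNAs of highest TPM and the 3 of lowest p. Members, lists and tests were chosen with earlier results of these data known.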

Additional observations from a re-analysis of the deposited data

How the results depend on the processing

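With quantile scaling, a pseudocount of 0.1 or no mean-variance trend, 11 of the 11 called potassium channel genes kept their call, and with no filter on low values 7 of 11 did. On deposited TPM, the called genes numbered 188 of all, 0 potassium channel genes in either direction (5 at an unadjusted p under 0.05 by limma) and 0 partners (8 at an unadjusted p under 0.05). That scaling reversed KCNA2 to -0.12, KCNC2 to -0.42, KCNF1 to -0.30, KCNK1 to -0.35, KCNMA1 to -0.46, KCNMB4 to -0.047, KCNQ3 to -0.46, KCNT1 to -0.11 and GNB5 to -0.077 (log2), where the median of all genes moved to -0.41. At a mean TPM of at least 5, fewer genes were tested and 4 potassium channel genes were higher. With no filter 1 was lower, and 8 were higher.

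Leaving out each library in turn, all genes called ranged between 763 and 2192, against 2289 with all libraries. Potassium channel genes called higher ranged between 2 (without domestic pig 1) and 12 (without domestic pig 2), those called lower between 0 (without wild boar 3 or domestic pig 1) and 2, partners between 0 and 13, and all circRNAs between 0 and 1. Log2 fold changes near 0 changed sign within these ranges: KCNC2 -0.00434 to 0.13, KCNJ9 -0.14 to 0.018, KCNK2 -0.34 to 0.019, KCNMA1 -0.10 to 0.21, KCNQ3 -0.10 to 0.17, ssc_circ_4001 -0.31 to 0.28 and ssc_circ_8312 -0.91 to 0.25.

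Replicate numbers did not pair the samples: same-numbered libraries of the 2 groups correlated at 0.11, -0.07 and -0.16 in their deviations from the group means. With the replicate number as a block, 1242 genes, 6 higher and 0 lower potassium channel genes, 3 partners and 21 circRNAs were called. Of all circRNAs, 13 were called as reported, 2 after rescaling, 29 with a pseudocount of 0.2, 6 with no filter and 1 with no trend; the potassium channel circRNAs called by limma numbered 0 in every setting run. The pseudocount of 0.2 moved ssc_circ_4001 to -0.00324, and rescaling moved ssc_circ_8312 to 0.075. The causes were not tested. TPM of genes keeps no depth, and 30 of the 36 circRNAs had under 30 reads in all, so their values carry a wide counting error.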
